A study of Homo sapiens with 14 samples.

Results

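CEBPA, CEBPB, CEBPD and CEBPG encode members of the C/EBP (CCAAT/enhancer binding protein) family of transcription factors. They are 4 of the 58780 genes in the deposited count table. They were picked by name, with the dexamethasone effect beside each inhibitor already known, so their dexamethasone values are given as a description and carry no test. PRO-seq (precision run-on sequencing) reads out nascent transcription: polymerases already engaged on the DNA of permeabilized cells extend their RNA with labelled nucleotides, and this RNA is sequenced. The cells were A549, an established human lung adenocarcinoma line. GSK591 inhibits PRMT5, an enzyme that places symmetric dimethyl marks on arginine, and MS023 blocks the enzymes of type I, which place asymmetric ones. Dexamethasone (Dex) is a synthetic glucocorticoid that activates the glucocorticoid receptor.

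The 14 libraries formed 7 groups of 2. The groups were untreated cells under the 15 min label, GSK591 at 1 µM for 15 min, MS023 at 1 µM for 15 min, each inhibitor with Dex at 100 nM for 15 min, and each inhibitor alone for 3 h. All 7 groups, the untreated cells included, had 0.01% DMSO per the labels. Cells given Dex with no inhibitor, and untreated cells under a 3 h label, are not analysed here, so every Dex value below is a value beside an inhibitor, and inhibitor and culture time cannot be told apart at 3 h. Nothing in the labels says that the replicates came from separate cultures, and p-values then measure only the spread between these samples, which may be technical.

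C/EBP proteins bind DNA as pairs through a basic region and a leucine zipper, and they pair with each other and with other proteins of this bZIP class. CEBPA is best known for driving differentiation of granulocytes, fat cells and hepatocytes and takes part in lung epithelial maturation. CEBPB and CEBPD are fast-responding genes of inflammation, the acute phase response and early fat cell differentiation, and glucocorticoids are known to act on them. CEBPG lacks the activation domains of the other members and acts mainly as a partner that modulates them.

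The start regions of CEBPA, CEBPB and CEBPG are shown because the polymerases that PRO-seq reads out enter the genes there. Each line gives bases 49 to 20 before the RefSeq start (GRCh38.p14), 5′ to 3′ on the gene's strand. Capitals mark a TATA box (TATAAA) or, for CEBPG, a CCAAT box read on the opposite strand (ATTGG).
CEBPA, chr19:33302554-33302583, minus strand: ggcgacgcggcctgccgggTATAAAagctg
CEBPB, chr20:50190781-50190810, plus strand: cggttgctacgggccgccctTATAAAtaac
CEBPG, chr19:33373660-33373689, plus strand: gtgcctccggcaggccggcgctcccATTGG
CEBPD is named only.

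CEBPA and CEBPB hold a TATA box that begins 30 and 29 bases before the RefSeq start, and CEBPG holds none in the 250 bases before its start. The GENCODE starts lie elsewhere, at 33302564 for CEBPA, 50190734 for CEBPB and 33373330 for CEBPG. On either strand, TATAAA occurs in 10.7% of 35116 such 250-base windows from 27305 genes, and CCAAT in 32% of them. CEBPG has CCAAT on the opposite strand at 85 and 24 bases before the start, and CEBPB has it on the gene's strand at 245 bases. CEBPB also has TGACG, the core of the site of CREB-type factors, at 57 bases, a match that 21.2% of windows hold. The glucocorticoid receptor hexamer AGAACA (12.4% of windows), the full element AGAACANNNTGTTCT (0.00285%) and the C/EBP site TTGCNNAA (9.05%) had no match in the 3 windows. The AGAACA matches include those within the full element, and a missing match says only that these letters are not in this window.

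All 4 are protein-coding genes (GENCODE 29, GRCh38). CEBPA (ENSG00000245848.2) lies on the minus strand of chromosome 19 from 33299934 to 33302564 and has 1 exon of 2631 bases. CEBPG (ENSG00000153879.8) lies on the plus strand of the same chromosome from 33373330 to 33382686, with 4411 exon bases in 3 blocks. CEBPB (ENSG00000172216.5) lies on the plus strand of chromosome 20 from 50190734 to 50192689, with 1 exon of 1956 bases. CEBPD (ENSG00000221869.4) lies on the minus strand of chromosome 8 from 47736909 to 47739086, with 1 exon of 2178 bases. Because the strand setting of the counting is not given in the sources used here, reads of an antisense partner cannot be told apart from those of the gene. This touches 231 exon bases of CEBPB, shared with CEBPB-AS1, and 1141 exon bases of CEBPA, shared with AC008738.3 and AC008738.5. Both of the latter had 0 counts in every library, but all of their 659 and 482 exon bases are shared. With the strand setting unknown, reads on shared bases may have gone uncounted, so the 0 counts do not show these genes silent. Reads of CEBPA and CEBPB may have been lost there too.

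Total counts per library ran from 5768312 to 9606938, and mitochondrial genes took 39.8% to 57.99% of them. Replicates differed by more than sampling noise in every group, with chi-square values per degree of freedom of 2.00 for the untreated pair and 13.4 for the pair given GSK591 with Dex. The shallowest library, MS023 15 min replicate 2, also had the lowest mitochondrial share, and replicate 2 of GSK591 with Dex had the highest. Of the epithelial genes, the keratin KRT8 ran from 259 to 353 CPM (reads per library scaled to a common total by the TMM method). KRT18 ran from 119 to 178 CPM and KRT19 from 13.2 to 24.5. MUC1 was at 5.16 to 11 CPM, SFTPC at 1.6 to 4.29 and EPCAM at 1.3 to 4.09. The surfactant gene SFTPB ran from 12.3 to 17.3 CPM, and NKX2-1, a defining factor of the lung lineage, was at most 0.459 CPM. Of the markers of other cells, the leukocyte genes CD3E and PTPRC had 0 counts throughout and at most 1, and CD68 ran from 0.814 to 3.37 CPM. The endothelial genes PECAM1, CDH5 and VWF reached at most 0.554, 1.41 and 0.3 CPM, and the summed fibroblast list was 5.53 to 8.88 CPM, nearly all of it COL1A1.

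All 4 genes passed the filter on low counts, with 279 to 981 reads per library for CEBPA, 181 to 1011 for CEBPB, 325 to 1202 for CEBPD and 280 to 429 for CEBPG. Set per kilobase of exon, the untreated level was 24.1 CPM for CEBPD, 16.97 for CEBPA, 12.8 for CEBPB and 8.64 for CEBPG. On that scale CEBPD stood at percentile 96.4 of the 21910 genes tested, CEBPA at 93.6, CEBPB at 90.3 and CEBPG at 83.8. Whether exons or whole genes were counted is not given. If whole genes were, this scale overstates genes with introns, CEBPG among them, and the percentiles would differ. CEBPE, a further family gene in the table, reached at most 8 counts and was not tested.

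CEBPA fell into a low and a high set of libraries. Its CPM was 46.1 and 43.1 in the untreated libraries, 87.7 and 74.5 after 15 min of GSK591, and 30.2 and 49.5 after 15 min of MS023. With Dex added, it was 94.5 and 76.2 beside GSK591 and 88.0 and 99.6 beside MS023. After 3 h it was 99.0 and 106.7 with GSK591 and 107.0 and 94.6 with MS023. The untreated and MS023 15 min libraries were low, the other 10 were high, and no library of the low set reached any of the high set. In order of group mean, only the step from untreated to GSK591 15 min separated neighbouring groups.

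CEBPB had CPM values of 27.0 and 23.21 in untreated cells, 42.0 and 32.3 after 15 min of GSK591, and 21.1 and 27.2 after 15 min of MS023. With Dex it was 87.0 and 71.8 beside GSK591 and 87.8 and 115.4 beside MS023. At 3 h it was 85.9 and 70.5 with GSK591 and 82.8 and 72.2 with MS023. Both libraries given GSK591 for 15 min lay above the untreated ones and below all those with Dex or 3 h of inhibitor.

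CEBPD had CPM values of 51.6 and 53.4 in untreated cells, 70.4 and 58.4 after 15 min of GSK591, and 42.8 and 48.8 after 15 min of MS023. With Dex it was 104.5 and 80.5 beside GSK591 and 116.0 and 137.3 beside MS023. At 3 h it was 100.1 and 108.5 with GSK591 and 112.9 and 102.0 with MS023. Both libraries given MS023 with Dex lay above those of every other group.

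CEBPG stayed in a narrow band. Its CPM ran from 35.4 in an untreated library to 48.99 in a library given MS023 with Dex. Group means ran from 38.1 ± 3.9 in untreated cells to 47.7 ± 1.8 with MS023 and Dex (SD, n = 2 each). In order of group mean, the libraries of neighbouring groups overlapped at every step but that from MS023 15 min to MS023 3 h.

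**Figure D1:**
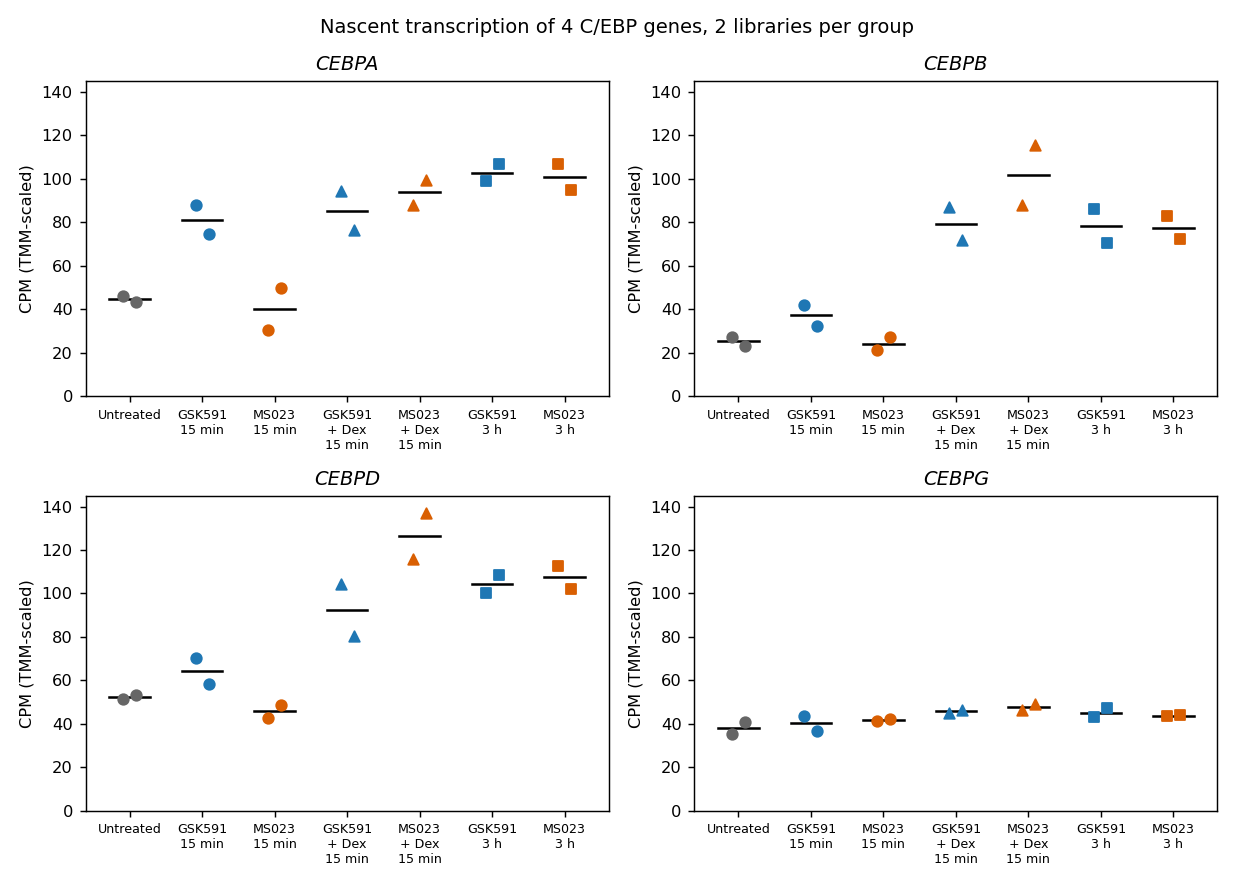
CPM (TMM-scaled) of CEBPA, CEBPB, CEBPD and CEBPG in each of the 14 libraries, 2 per group. Points are libraries, coloured by inhibitor with grey for untreated cells, and horizontal bars are group means; CEBPA is already at 74.5 CPM or more in both GSK591 15 min libraries, whereas CEBPG stays between 35.4 and 48.99 CPM throughout.

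The first comparison asked what 15 min of each inhibitor did without Dex. Its inhibitor libraries are the baselines of the Dex effects known when the members were picked, so members' p-values are not independent of that choice. CEBPA rose with GSK591 by 0.86 ± 0.13 on the log2 scale (SE), a 1.82-fold difference with an adjusted p of 2.63e-04 by edgeR's quasi-likelihood test with Benjamini-Hochberg adjustment. It was the only member of the 4 that passed, where 0.306% of all genes tested passed. CEBPB differed by 0.57 ± 0.15 (adjusted p = 0.0913), CEBPD by 0.29 ± 0.12 (0.559) and CEBPG by 0.08 ± 0.11 (0.976). CEBPB and CEBPD were nonetheless higher in both GSK591 libraries than in either untreated library, as were 21.1% of all genes tested. The CEBPA call was lost without GSK591 15 min replicate 1 (0.74, adjusted p = 0.121) and missed the threshold with DESeq2 (0.85, adjusted p = 0.0515). The authors' deposited table gives CEBPA 0.90 here with an adjusted p of 1, and 0 genes pass 0.05 there. Without GSK591 15 min replicate 2, CEBPB passed (0.75, adjusted p = 0.0295).

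With MS023 for 15 min none of the 4 genes passed by edgeR (0 at an unadjusted p under 0.05, and 0 by DESeq2), where 0.183% of all genes passed. The log2 difference from untreated cells was −0.19 for CEBPA with a 95% interval of −0.48 to 0.10. For CEBPB it was −0.08 (−0.40 to 0.25), for CEBPD −0.20 (−0.45 to 0.04) and for CEBPG 0.13 (−0.10 to 0.35). The MS023 libraries of CEBPA were far apart, and leaving out replicate 1 or replicate 2 gave 0.15 or −0.58.

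The inhibitors were then compared directly at 15 min, at the same dose. The libraries given an inhibitor alone for 15 min are also the baselines of the Dex effects known when the members were picked. Members' p-values in every contrast that uses these libraries are therefore not independent of that choice. CEBPA was 2.07-fold higher with GSK591 than with MS023 (log2 1.05 ± 0.14, adjusted p = 5.11e-05, edgeR). CEBPB was higher by 0.64 ± 0.15 (adjusted p = 0.0217) and CEBPD by 0.50 ± 0.12 (adjusted p = 0.0259). CEBPG differed by −0.05 ± 0.11 (adjusted p = 0.945), with an interval of −0.27 to 0.18. So 3 of the 4 passed, where 1.09% of all genes did. For each of these 3 genes both GSK591 libraries lay above both MS023 libraries, as they did for 21% of all genes. These calls rested on few libraries. Without MS023 15 min replicate 1, CEBPA fell short (0.71, adjusted p = 0.16), as did CEBPB (0.45, adjusted p = 0.702) and CEBPD (0.40, adjusted p = 0.637). Without GSK591 15 min replicate 1, CEBPB (0.43, adjusted p = 0.577) and CEBPD (0.35, adjusted p = 0.576) fell short. DESeq2 kept the CEBPA call and gave adjusted p values of 0.314 for CEBPB and 0.0983 for CEBPD.

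The Dex effect was defined as the group given inhibitor with Dex against the same inhibitor alone, all at 15 min. These values chose the members, so they are described here with their standard errors. Beside GSK591, CEBPB was higher with Dex by 1.10 ± 0.14 on the log2 scale, CEBPD by 0.52 ± 0.12, CEBPG by 0.18 ± 0.11 and CEBPA by 0.08 ± 0.13. CEBPA libraries with and without Dex overlapped there. Those of the other 3 did not, and among all genes 20.7% likewise had both Dex libraries above both without. By the test, 3.7% of all genes passed in this contrast.

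Beside MS023, the same genes were higher with Dex by 2.09 ± 0.14 (CEBPB), 1.47 ± 0.12 (CEBPD), 1.26 ± 0.14 (CEBPA) and 0.20 ± 0.11 (CEBPG). In fold terms these were 4.26, 2.78, 2.40 and 1.15. The libraries with and without Dex overlapped for none of the 4 genes, and among all genes 24.2% likewise had both Dex libraries above both without. By the test, 8.97% of all genes passed in this contrast. The CEBPA value moved between 0.92 without MS023 15 min replicate 1 and 1.64 without replicate 2.

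**Figure D2:**
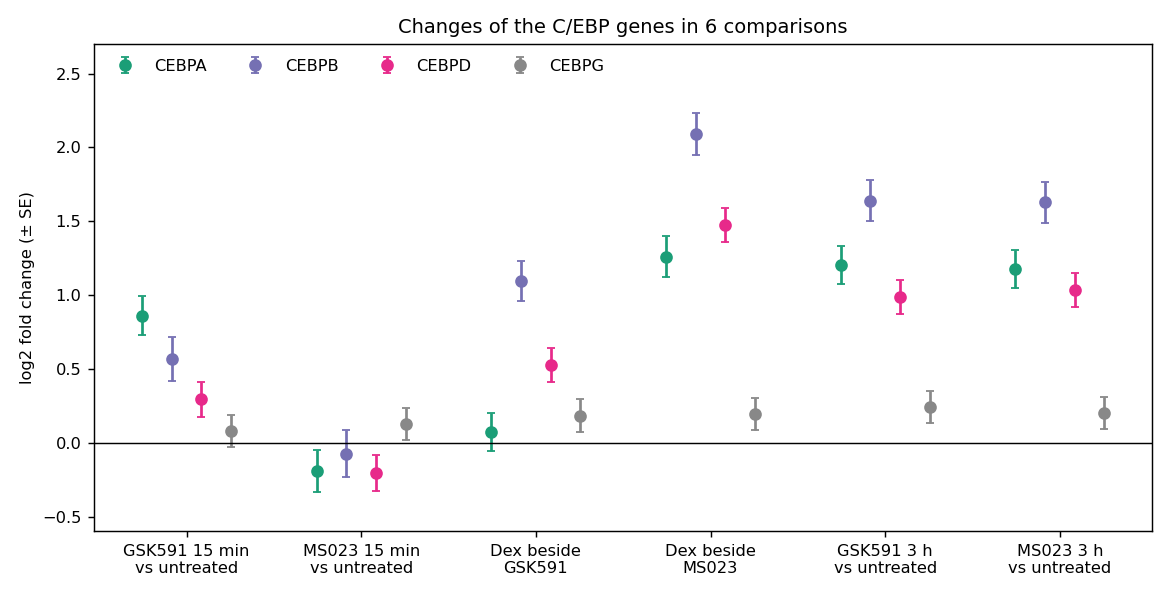
Log2 fold change with its standard error for CEBPA, CEBPB, CEBPD and CEBPG in 6 comparisons from the fit of all 14 libraries. Dex comparisons are inhibitor with Dex against the inhibitor alone; CEBPA is near 0 beside GSK591 (0.08) and at 1.26 beside MS023, and CEBPG lies between 0.08 and 0.24 in every comparison shown.

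The Dex effect beside GSK591 minus that beside MS023 was −1.19 ± 0.19 for CEBPA, −0.996 ± 0.197 for CEBPB, −0.95 ± 0.16 for CEBPD and −0.01 ± 0.16 for CEBPG. Over all genes tested, 1.15% passed the test of this difference. The difference is made of 2 parts that share libraries with the comparisons above: the gap between the inhibitors with Dex, less the gap without Dex. For CEBPA the inhibitors differed by 1.05 without Dex and by −0.13 ± 0.13 with Dex. For CEBPB the gaps were 0.64 without Dex and −0.35 ± 0.12 with it, and for CEBPD 0.50 and −0.45 ± 0.11. The gaps with Dex were computed after the values were seen and were not recomputed with libraries left out. The gap between the inhibitors at CEBPA was thus the larger one without Dex. The gaps at CEBPB and CEBPD had opposite signs without and with Dex. For CEBPG the gap with Dex was −0.06 ± 0.11.

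Against untreated cells, which are shared by the next comparisons, GSK591 with Dex gave 1.66 ± 0.14 for CEBPB, 0.94 ± 0.13 for CEBPA, 0.82 ± 0.12 for CEBPD and 0.26 ± 0.11 for CEBPG. MS023 with Dex gave 2.02 ± 0.14 for CEBPB, 1.27 ± 0.11 for CEBPD, 1.07 ± 0.13 for CEBPA and 0.32 ± 0.11 for CEBPG. CEBPB was thus the member farthest from its untreated level in both groups. Among all genes, 5.85% and 7.66% passed in these contrasts. The authors' deposited table gives the same order in each group, with log2 fold changes for CEBPB of 1.77 (GSK591 with Dex) and 2.13 (MS023 with Dex), and for CEBPA of 0.98 and 1.12.

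Early glucocorticoid targets were set beside the members. The list was chosen with earlier results of these data known, so its rise with Dex is no independent result. Of 16 tested, 14 rose beside GSK591 and 14 beside MS023, where 1.43% and 5.9% of all genes rose. The median log2 changes of the list were 1.19 and 1.21, where the median of all genes was −0.0043 and −0.0156. PER1, a clock gene, rose by 1.89 ± 0.13 beside GSK591 (adjusted p = 7.73e-14) and by 1.92 ± 0.12 beside MS023 (adjusted p = 1.03e-14). TSC22D3, which encodes the glucocorticoid-induced leucine zipper protein, rose by 1.72 ± 0.12 and 1.89 ± 0.11. None of the 16 passed when the 2 Dex effects were compared by edgeR or by DESeq2, 3 had an unadjusted p under 0.05, and the list's median difference was −0.09. CEBPA, CEBPB and CEBPD had differences of −0.95 or lower on the same scale in the fit of all libraries. With each library left out in turn, CEBPA ranged from −1.56 to −0.85, CEBPB from −1.19 to −0.79 and CEBPD from −1.16 to −0.78.

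**Figure D3:**
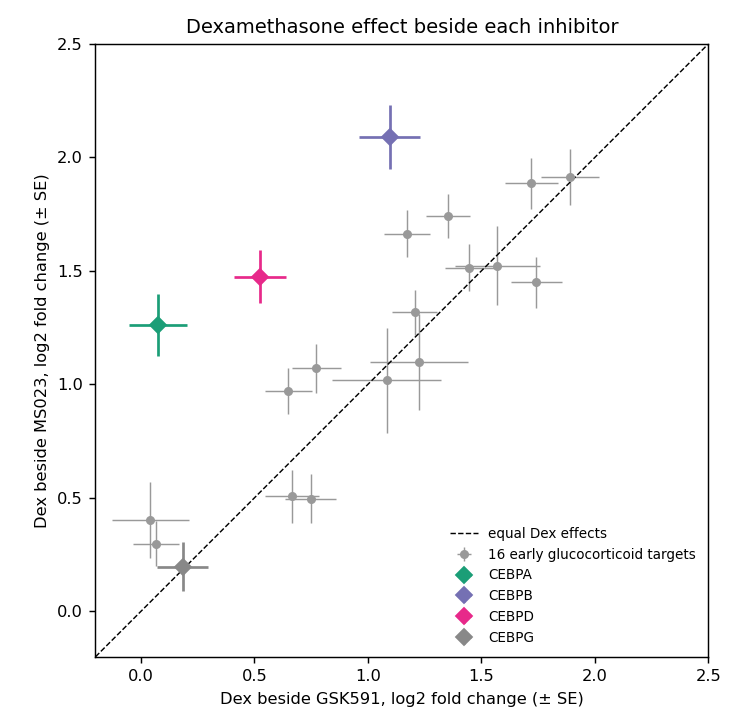
Dex effect beside MS023 (vertical axis) against the Dex effect beside GSK591 (horizontal axis), both as log2 fold changes with standard errors, for the 4 C/EBP genes (diamonds) and 16 early glucocorticoid targets (grey circles). The dashed line marks equal effects; CEBPA, CEBPB and CEBPD lie above it by 0.95 or more, and CEBPG lies near it.

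After 3 h, CEBPA, CEBPB and CEBPD had risen with either inhibitor. With GSK591 against untreated cells CEBPB rose by 1.64 ± 0.14 (adjusted p = 1.97e-11), CEBPA by 1.20 ± 0.13 (adjusted p = 9.72e-09) and CEBPD by 0.99 ± 0.11 (adjusted p = 3.76e-08). In fold terms these were 3.12, 2.30 and 1.99. CEBPG differed by 0.24 ± 0.11 and did not pass (adjusted p = 0.148). Among all genes, 11% passed in this contrast. CEBPB lay at percentile 99.6 of all log2 fold changes, CEBPA at 98.8 and CEBPD at 97.6.

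With MS023 for 3 h, CEBPB rose by 1.63 ± 0.14 (adjusted p = 3.86e-11), CEBPA by 1.18 ± 0.13 (adjusted p = 1.87e-08) and CEBPD by 1.03 ± 0.11 (adjusted p = 1.66e-08). CEBPG differed by 0.20 ± 0.11 (adjusted p = 0.313). Among all genes, 7.63% passed. The 3 calls at 3 h held for both inhibitors under every alternative run, including the omission of each library in turn. The authors' deposited table gives 1.76 for CEBPB, 1.26 for CEBPA and 0.97 for CEBPD with GSK591, and 1.75, 1.23 and 1.01 with MS023. All 6 of these pass 0.05 by the adjusted p in the authors' deposited table, the largest being 0.00271.

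At 3 h no difference between the inhibitors was detected on these genes. GSK591 against MS023 gave 0.03 for CEBPA with an interval of −0.22 to 0.27, and 0.01 for CEBPB (−0.24 to 0.26). CEBPD gave −0.04 (−0.27 to 0.18) and CEBPG 0.04 (−0.17 to 0.26). By edgeR none of the 21910 genes tested passed in this contrast, 1319 had an unadjusted p under 0.05, none of the 4 members among them, and DESeq2 called 1.

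From 15 min to 3 h of the same inhibitor, the genes moved by different amounts. The 15 min libraries are again the baselines of the Dex effects, so these p-values too are not independent of how the members were picked. With MS023, CEBPB rose by 1.70 ± 0.14, CEBPA by 1.37 ± 0.14 and CEBPD by 1.24 ± 0.12, the largest adjusted p of the 3 being 1.09e-09. With GSK591, CEBPB rose by 1.07 ± 0.13 (adjusted p = 8.19e-07) and CEBPD by 0.69 ± 0.11 (adjusted p = 8.08e-05). CEBPA, already high at 15 min, differed by 0.34 ± 0.12 and did not pass (adjusted p = 0.0953). CEBPG differed by 0.16 ± 0.11 with GSK591 and by 0.07 ± 0.11 with MS023. Among all genes 6.41% passed with GSK591 and 12% with MS023. The CEBPA difference with GSK591 passed without MS023 15 min replicate 1 (adjusted p = 0.049) and without replicate 2 of GSK591 with Dex (adjusted p = 0.0466).

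CEBPA, CEBPB and CEBPD share features that CEBPG lacks. Each has a single exon, and their transcripts had GC contents of 65.9%, 66.2% and 70.0%, against 43.9% for CEBPG and a median of 49.9% over the genes tested. Among 140 other single-exon protein-coding genes with at least 60% GC, 20.7% rose with GSK591 at 3 h and 16.4% with MS023, against 7.25% and 5.4% of all genes tested. For Dex beside MS023 the shares were 17.1% and 5.9%, and beside GSK591 2.86% and 1.43%. At 3 h 14 of these 140 fell with GSK591 and 5 with MS023, and with Dex 9 beside GSK591 and 3 beside MS023. All genes passing in either direction were 11%, 7.63%, 3.7% and 8.97%. The class median with Dex beside GSK591 was −0.127, where all genes stood at −0.0043. Between the inhibitors at 15 min, 7 were higher with GSK591 and 0 lower, and 1.09% of all genes passed. For the difference of the Dex effects 0 were higher and 8 lower, and 1.15% of all genes passed. Trends on transcript GC and exon length were then added to the fit together, an alternative chosen after seeing the data, so the part of either alone was not measured. The 3 h changes were then 1.53, 1.09 and 0.78 for CEBPB, CEBPA and CEBPD with GSK591, and 1.54, 1.09 and 0.86 with MS023, all of them still called. The GSK591 change of CEBPA at 15 min was 0.79 in that fit (adjusted p = 2.05e-04), and the differences of the Dex effects were −1.05, −0.86 and −0.70 for CEBPA, CEBPB and CEBPD.

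The nearest tested genes were examined for each member. CEBPA-DT, a noncoding transcript that starts 293 bp from CEBPA on the opposite strand, passed in none of the 13 contrasts. Its CPM ran from 23.26 to 33.5 over the 14 libraries, below CEBPA in all of them but MS023 15 min replicate 1, where the pair stood at 30.6 and 30.2. On the other side of CEBPA, SLC7A10, an amino acid transporter gene 74084 bp away, rose at 3 h by 0.67 ± 0.17 with GSK591 (adjusted p = 0.00629) and by 0.62 ± 0.17 with MS023 (adjusted p = 0.0159). Both SLC7A10 calls were lost without untreated replicate 2, the GSK591 value being 0.56 (adjusted p = 0.133). CEBPB-AS1, which overlaps CEBPB, ran from 3.65 to 6.05 CPM and passed in no contrast.

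SMIM25, 74797 bp beyond CEBPB, rose with Dex by 1.36 ± 0.33 beside GSK591 (adjusted p = 0.00947) and by 1.44 ± 0.35 beside MS023 (adjusted p = 0.00529), from 1.35 to 2.83 CPM in the libraries given an inhibitor alone for 15 min. Its Dex effects differed by −0.08 ± 0.49 (adjusted p = 0.982), and its calls were lost without GSK591 15 min replicate 2 (1.07, adjusted p = 0.181) and without MS023 15 min replicate 2 or replicate 2 of MS023 with Dex (1.32, adjusted p = 0.0832 without the latter). SPIDR, a DNA repair gene whose 3′ end lies 603 bp from that of CEBPD, rose with Dex beside GSK591 by 0.48 ± 0.14 (adjusted p = 0.0457), and the value beside MS023 was 0.37 ± 0.14 (adjusted p = 0.104). PRKDC, which encodes a kinase of DNA end joining and lies 34022 bp from CEBPD, fell with GSK591 at 3 h by 0.39 (adjusted p = 0.0327). The calls of SPIDR and PRKDC were both lost with DESeq2 (adjusted p = 0.167 and 0.134), and with 9 and 4 of the 14 libraries left out in turn. Next to CEBPG, neither PEPD, a peptidase gene 4264 bp away, nor AC008738.2 passed in any contrast.

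**Figure D4:**
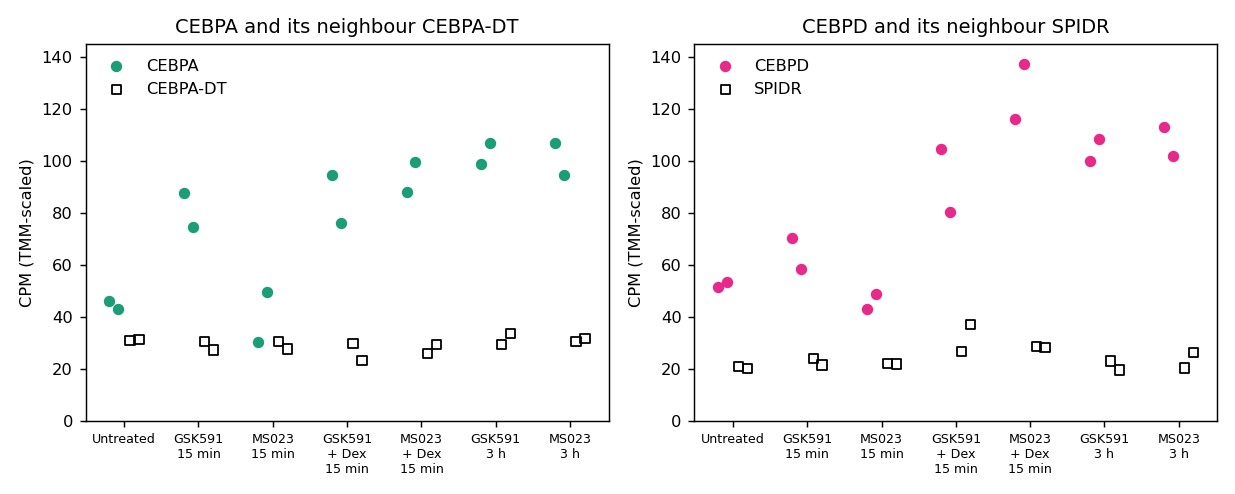
CPM (TMM-scaled) per library of CEBPA with CEBPA-DT (left) and of CEBPD with SPIDR (right) in the 7 groups; filled circles are the C/EBP gene and open squares its neighbour. CEBPA-DT stays between 23.26 and 33.5 CPM in groups where CEBPA runs from 30.2 to 107.0, and SPIDR runs from 19.5 to 36.9.

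Of 5 other genes named for the family or its neighbouring transcripts, none passed in any of the 13 contrasts by edgeR or DESeq2, and at most 2 had an unadjusted p under 0.05 in a contrast. DDIT3, which encodes an inhibitory C/EBP protein of the stress response, ran from 4.71 to 10.5 CPM. CEBPZ, which is named with the family but is not a bZIP protein, ran from 13.0 to 19.1 CPM. CEBPA-DT, CEBPB-AS1 and CEBPZOS were the others.

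Many calls of the listed and neighbouring genes did not hold when 1 library was left out. This ended 9 of the 16 such calls with GSK591 and 10 of the 15 with MS023 at 3 h, 9 of 22 and 13 of 30 for Dex beside GSK591 and MS023, all 4 between the inhibitors at 15 min and all 3 for the difference of the Dex effects. DESeq2 put 4, 5, 2, 5, 2 and 1 of them, in the same order, at an adjusted p of 0.05 or more.

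bZIP genes that can pair with or compete with C/EBP proteins moved in both directions. Of 21 tested, none passed with either inhibitor at 15 min by edgeR or DESeq2 (2 with GSK591 and 1 with MS023 at an unadjusted p under 0.05). At 3 h, 3 rose and 2 fell with GSK591, and 2 rose and 2 fell with MS023, beside 11% and 7.63% of all genes that passed. The list medians at 3 h were −0.15 and −0.16, where all genes stood at −0.00842 and −0.0113. CREM, a cyclic AMP responsive factor, rose at 3 h by 1.39 ± 0.17 with GSK591 (adjusted p = 6.92e-08) and 1.65 ± 0.16 with MS023 (adjusted p = 1.20e-09). JUND rose by 0.66 ± 0.12 and 0.86 ± 0.12, and BATF3 rose with GSK591 by 0.92 ± 0.26. JUN, the AP-1 subunit, fell by 0.85 and 0.69 with GSK591 and MS023, and FOSL1 fell by 0.50 and 0.43. Without untreated replicate 2 the calls of FOSL1 (adjusted p = 0.249 and 0.483) and BATF3 (0.126) were lost, and BATF3 did not pass with DESeq2 (0.0945).

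JUND was the bZIP gene that passed in the direct comparison at 15 min, where 1.09% of all genes passed. It stood at 86.5 and 73.6 CPM with GSK591 and at 41.2 and 59.9 with MS023, a log2 difference of 0.68 ± 0.12 (adjusted p = 0.00114). With Dex it was 78.4 and 67.6 beside GSK591 and 83.1 and 89.2 beside MS023. Its Dex effects differed by −0.92 ± 0.17 (adjusted p = 0.00183). It was the single bZIP gene of 21 to pass there, beside 1.15% of all genes. Without MS023 15 min replicate 1 the JUND values were 0.42 (adjusted p = 0.54) and −0.66 (adjusted p = 0.158), and both calls were also lost without GSK591 15 min replicate 1. With Dex beside MS023, CREM (1.22 ± 0.17), BATF3 (0.94 ± 0.27), JUND (0.79 ± 0.12) and FOSL2 (0.55 ± 0.09) rose, 4 of the 21, where 5.9% of all genes rose. Beside GSK591, FOSL2 rose by 0.40 ± 0.09 and JUN fell by 0.40, where 3.7% of all genes passed. The BATF3 call beside MS023 was lost with DESeq2 (adjusted p = 0.141), and without GSK591 15 min replicate 1 FOSL2 (adjusted p = 0.127) and JUN (adjusted p = 0.143) fell short.

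Enzymes and cofactors that modify C/EBP proteins numbered 27 among the genes tested. With GSK591 at 3 h, 3 rose and 1 fell, a share near the 11% of all genes that passed. The risers were the kinases GSK3A (0.75 ± 0.09, adjusted p = 1.94e-07) and MAPK14 (0.68 ± 0.15, adjusted p = 0.00229) and the ubiquitin ligase COP1 (0.59 ± 0.14, adjusted p = 0.00315), and the gene that fell was EIF4E, a translation factor (by 0.46). With MS023 at 3 h the same 3 rose, MAPK14 by 0.75, GSK3A by 0.73 and COP1 by 0.50, and none fell, where 7.63% of all genes passed. MAPK14, the p38 alpha kinase, was higher with GSK591 than with MS023 at 15 min by 0.82 ± 0.17 (adjusted p = 0.00472), and its Dex effects differed by −0.98 ± 0.22 (adjusted p = 0.0153). Without MS023 15 min replicate 1 these were 0.54 (adjusted p = 0.621) and −0.70 (adjusted p = 0.385). With Dex beside MS023, 4 of the 27 rose, where 5.9% of all genes did. These were MAPK14, TRIB1, GSK3A and EP300, by 1.10, 0.73, 0.47 and 0.38. TRIB1 encodes a pseudokinase that directs C/EBP proteins to degradation. The corepressor gene HDAC3 fell with Dex by 0.70 beside GSK591 and by 0.47 beside MS023, where 3.7% and 8.97% of all genes passed in either direction. NR3C1, which encodes the glucocorticoid receptor, passed in neither Dex contrast. With DESeq2 the calls of EIF4E (adjusted p = 0.135), COP1 with MS023 (0.114), EP300 (0.0591), HDAC3 beside MS023 (0.104) and the MAPK14 difference of Dex effects (0.0891) were lost. Without untreated replicate 1 MAPK14 fell short at 3 h (0.115 with GSK591 and 0.0758 with MS023), and without untreated replicate 2 so did COP1 with both inhibitors.

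Known C/EBP target genes were grouped by function. Of 15 acute phase and inflammatory genes tested, HPX, which encodes the haem carrier hemopexin, fell with GSK591 at 3 h by 1.45 ± 0.49 (adjusted p = 0.0464), where 11% of all genes passed. DESeq2 gave HPX no adjusted p, and the call was lost with 11 of the 14 libraries left out in turn. In this list none passed with MS023 at 3 h or with Dex beside GSK591 by edgeR or DESeq2 (1 and 4 at an unadjusted p under 0.05). With Dex beside MS023 CSF3, a granulocyte growth factor, fell by 0.61 (adjusted p = 0.167 with DESeq2), and SERPINA3 rose, whose mean was under 1 CPM and which was singled out after its values were seen. By the edgeR test, 8.97% of all genes passed there. Of 9 lung genes, FOXA2, a pioneer factor of endoderm, was higher with GSK591 than with MS023 at 15 min by 0.56 ± 0.13 (adjusted p = 0.0156). FOXA2 fell with Dex by 0.44 beside GSK591 and rose by 0.44 beside MS023, and its Dex effects differed by −0.89 ± 0.18 (adjusted p = 0.00706). In these 4 contrasts, in the order given, 1.09%, 3.7%, 8.97% and 1.15% of all genes passed. Without MS023 15 min replicate 1 FOXA2 did not pass between the inhibitors (0.40, adjusted p = 0.671), with Dex beside MS023 (0.28, adjusted p = 0.469) or for the difference (−0.72, adjusted p = 0.217). The FOXA2 fall beside GSK591 was lost with DESeq2 (adjusted p = 0.165) and with 10 of the 14 libraries left out in turn.

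Of 15 metabolic and growth genes, none passed with GSK591 at 3 h by edgeR or DESeq2 (5 at an unadjusted p under 0.05), and CDKN1A (0.64 ± 0.14) and SCD (0.32 ± 0.10) rose with MS023 at 3 h, where 7.63% of all genes passed. SCD was lost with DESeq2 (adjusted p = 0.0747), and CDKN1A without MS023 3 h replicate 1 (0.48, adjusted p = 0.143). CDKN1A, a cell cycle inhibitor gene, also rose with Dex by 0.66 ± 0.16 beside GSK591 and 0.69 ± 0.15 beside MS023. IGFBP1, an insulin-like growth factor binding protein, rose with Dex beside MS023 by 1.60 ± 0.25, as did GADD45A by 0.53 ± 0.11. With Dex, 1 of the 15 rose and 1 fell beside GSK591, and 3 rose and 0 fell beside MS023. Among all genes, 3.7% and 8.97% passed there. SOCS3, a brake on cytokine signalling, was higher with GSK591 than with MS023 at 15 min by 0.45 ± 0.11 (adjusted p = 0.0275), and by 0.27 without MS023 15 min replicate 1 (adjusted p = 0.746). The CDKN1A calls with Dex were lost without replicate 1 of GSK591 with Dex (0.34, adjusted p = 0.311) and without MS023 15 min replicate 2 (0.53, adjusted p = 0.0615), and GADD45A without MS023 15 min replicate 1 (0.37, adjusted p = 0.174).

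At 3 h, 4 of the 16 glucocorticoid targets were lower than in untreated cells with either inhibitor, and the other 12 did not pass. Among all genes, 11% passed with GSK591 and 7.63% with MS023, in either direction. The list medians were −0.10 and −0.05, with 6 of the 16 genes above 0 in each contrast. PER1 fell by 0.93 with GSK591 (adjusted p = 2.59e-05) and by 0.73 with MS023 (adjusted p = 9.87e-04). TSC22D3 fell by 0.71 and 0.53, KLF6 by 0.69 and 0.47, and ANGPTL4 by 0.37 and 0.58. ANGPTL4 with GSK591 was lost with DESeq2 (adjusted p = 0.122). With MS023, PER1 (adjusted p = 0.0701) and TSC22D3 (0.234) fell short without MS023 3 h replicate 1, and KLF6 (0.0809) without untreated replicate 2.

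CEBPB and CEBPD had the most similar profiles among the members, with Pearson's r of 0.976 over the 14 libraries on log2 CPM. CEBPA had r of 0.901 with CEBPD and 0.890 with CEBPB, and CEBPG had r of 0.588 with CEBPA, 0.757 with CEBPB and 0.749 with CEBPD. These points share libraries, scaling and treatment groups, and the values are descriptions. Over the 7 group means, the genes most like CEBPA among 6778 candidates included ABHD17B (r = 0.995) and ADSSL1 (0.995). Those most like CEBPB were ZADH2 (0.996), UBALD2 (0.994) and SMIM13 (0.993). For CEBPD they were RRAS2 (0.995), C16orf87 (0.995) and UBP1 (0.991), and for CEBPG SNX2 (0.983), ACSS1 (0.977) and TGFBR2 (0.975).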

How the data were processed

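PRO-seq was done on A549 cells in 14 libraries. The deposited table holds whole-number read counts per gene for 58780 genes, made by the authors with featureCounts 2.0.1 of Subread on hg38, per the submitters' processing notes. Which aligner and strand setting were used, which feature was counted and how duplicates were treated are not given in the sources used here. The deposited tables of the authors' DESeq2 comparisons hold, per the file headers, a log2 fold change and SE, p-values before and after adjustment, a score (the test statistic) and the mean signal of each gene (baseMean). Only their log2 values and p-values are printed.

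Counts were tested as deposited with edgeR 4.0.16 (R 4.3.3), with TMM scaling, filterByExpr (21910 genes left), 1 coefficient per group over all 14 libraries (7 residual degrees of freedom), two-sided quasi-likelihood tests and Benjamini-Hochberg adjustment per contrast over all genes tested, called under 0.05. CPM used TMM-scaled totals, and no spike-in was used, so changes are relative to the bulk of genes. Coordinates and the 22731 gene names blank in the table came from GENCODE 29, and sequences from RefSeq. Functions were tested on simulated counts.

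The 4 members and all gene lists were chosen with earlier results of these data known. Of each list, genes called with a mean of at least 1 CPM were named, up to the 3 highest and 3 lowest per contrast, with the nearest tested gene on each side of each member and the 3 genes most like it (mean of at least 5 CPM). One gene that this rule names for CEBPA is not reported here. DESeq2 1.42.0, DESeq2 size factors, library size with and without mitochondrial genes, no count filter, fits of only the groups compared, a replicate block, a GC and length correction and leaving out each library were the alternatives.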

Additional observations from a re-analysis of the deposited data

Results flagged for a closer look

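Several differences between groups passed a test of the difference itself. For the C/EBP genes, the 15 min libraries in these tests are also the baselines of the Dex effects known when the genes were picked. Their tests are therefore not independent of that choice. The other genes named here come from lists that were also chosen with earlier results of these data known. The tests of these other genes are no independent result either. At 15 min the inhibitors differed (GSK591 minus MS023, log2) by 1.05 at CEBPA, 0.64 at CEBPB, 0.50 at CEBPD, 0.68 at JUND, 0.82 at MAPK14, 0.56 at FOXA2 and 0.45 at SOCS3. Without MS023 15 min replicate 1 none of these 7 passed by edgeR, nor did any other gene (0 called, 1523 at an unadjusted p under 0.05, against 239 called with all libraries). DESeq2, run on all libraries, called 74.

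The Dex effect beside GSK591 less that beside MS023 was −0.92 for JUND, −0.98 for MAPK14 and −0.89 for FOXA2. Without MS023 15 min replicate 1 these were −0.66, −0.70 and −0.72, with adjusted p from 0.158 to 0.385.

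The time points differed within an inhibitor (3 h minus 15 min). With GSK591 the change was 1.07 at CEBPB and 0.69 at CEBPD. With MS023 it was 1.37 at CEBPA, 1.70 at CEBPB and 1.24 at CEBPD. The comparisons at 15 min share the MS023 15 min libraries, whose CEBPA values were 30.2 and 49.5 CPM and whose mitochondrial shares were 44.5% and 39.8%. The part of this spread in the differences was not tested beyond leaving out each library.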

How the results depend on the processing

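The log2 fold changes of the 4 members were recomputed as 1144 alternative values, and none changed direction past a threshold. Changes of sign in values that were not called did not count, and some occurred. With libraries left out, MS023 at 15 min gave −0.58 to 0.15 for CEBPA and −0.26 to 0.11 for CEBPB. Dex beside GSK591 gave −0.09 to 0.23 for CEBPA. The 3 h calls of CEBPA, CEBPB and CEBPD against untreated cells held under every alternative. Counts of genes called and the other genes are not among the 1144 values. Where a call or count did change, the cause was not tested.

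With DESeq2 the genes called were 25 for GSK591 at 15 min (67 with edgeR), 1244 for GSK591 at 3 h (2419), 908 for MS023 at 3 h (1672), 614 for GSK591 from 15 min to 3 h (1405), 1421 for MS023 likewise (2640), 74 between the inhibitors at 15 min (239), 1 at 3 h (0), 408 for Dex beside GSK591 (811), 1003 beside MS023 (1966), 71 for the difference of the Dex effects (252), 618 for GSK591 with Dex against untreated (1282) and 832 for MS023 with Dex (1679). DESeq2 gave CEBPA 0.85 with GSK591 at 15 min (adjusted p = 0.0515), and between the inhibitors CEBPB 0.63 (adjusted p = 0.314) and CEBPD 0.49 (adjusted p = 0.0983).

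Scaling by library size alone gave 1001 genes for MS023 at 3 h, 712 for GSK591 from 15 min to 3 h, 29 between the inhibitors at 15 min, 1472 for Dex beside GSK591, 69 for the difference of the Dex effects and 977 for MS023 with Dex, and put CEBPB (0.53, adjusted p = 0.321) and CEBPD (0.39, adjusted p = 0.488) short of the threshold between the inhibitors at 15 min. Leaving mitochondrial genes out of the library size gave 25 for GSK591 and 196 for MS023 at 15 min, 1 between the inhibitors at 3 h, 478 for the difference of the Dex effects and 2044 for GSK591 with Dex. These 2 scalings moved the median of all genes by up to −0.208 (library size alone, Dex beside GSK591). Higher against lower calls went from 1588 and 831 to 1960 and 197 (library size alone) and 989 and 1685 (no mitochondrial genes) for GSK591 at 3 h. For MS023 at 3 h they went from 1184 and 488 to 850 and 151, and 951 and 620. For Dex beside GSK591 they went from 313 and 498 to 98 and 1374, and 221 and 678, and beside MS023 from 1293 and 673 to 533 and 1317, and 1562 and 364. With library size alone CEBPG stood at −0.02 and 0.02 with Dex beside GSK591 and MS023, against 0.18 and 0.20.

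Without the count filter 126 genes passed for GSK591 and 101 for MS023 at 15 min and 47 between the inhibitors at 3 h, and CEBPB (0.54, adjusted p = 0.0113) passed with GSK591 at 15 min and CEBPA (0.36, adjusted p = 0.0211) from 15 min to 3 h. Fits of only the groups compared gave 187 and 176 genes for GSK591 and MS023 at 15 min, 9 between the inhibitors at 3 h, 385 for Dex beside GSK591, 135 for the difference of the Dex effects, 801 for GSK591 with Dex and 2620 for MS023 with Dex. There CEBPB (0.55, adjusted p = 0.0035) passed with GSK591 at 15 min and CEBPA (0.34, adjusted p = 0.0393) from 15 min to 3 h. The GC and length correction gave 6 genes between the inhibitors at 3 h and kept all calls of the 4 members.

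Same-numbered replicates deviated together in 1 of 21 pairs of groups (r from −0.0754 to 0.113), so little sign of pairing by number was seen. With 2 libraries per group, this check cannot exclude that the samples were handled in pairs. A replicate block gave 74 genes for GSK591 at 15 min and 5 between the inhibitors at 3 h, and changed no call of a member.

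Leaving out each library in turn gave 4 to 104 genes for GSK591 and 2 to 88 for MS023 at 15 min, 1092 to 2786 and 834 to 1974 at 3 h, 388 to 1713 and 1160 to 2951 from 15 min to 3 h, 0 to 322 between the inhibitors at 15 min and 0 to 24 at 3 h. For Dex beside GSK591 it gave 339 to 1007, beside MS023 641 to 2213, for their difference 8 to 490, and 420 to 1293 and 657 to 1954 for GSK591 and MS023 with Dex against untreated. The lowest counts came without MS023 15 min replicate 1 in the contrasts between the inhibitors at 15 min, of Dex beside MS023, of the Dex difference and of MS023 over time, and without an untreated or GSK591 15 min library in the other contrasts with calls. For members, GSK591 at 15 min ranged from 0.74 to 0.98 for CEBPA and from 0.36 to 0.75 for CEBPB, and CEBPA from 15 min to 3 h from 0.23 to 0.47. Between the inhibitors at 15 min the ranges were 0.71 to 1.43 (CEBPA), 0.43 to 0.82 (CEBPB) and 0.35 to 0.63 (CEBPD). Each member had at least 181 reads in every library. DESeq2 and the omission of each library were extended to the listed and neighbouring genes after seeing the data.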
